A study of Mus musculus with 7 samples.

Results

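The genes described here encode receptors for the GDNF family of ligands and for the neurotrophins, the growth factors that keep many neurons alive. They are Ret, Gfra1, Gfra2, Gfra3, Gfra4, Ntrk2, Ntrk3 and Ngfr, 8 of the 12393 genes named on the array. They were chosen by gene name, with earlier results of these data known. Their shares set beside those of all probe sets or genes are therefore descriptive. All 17 probe sets that the platform's annotation assigns to these genes were taken, out of 22626 tested. The RNA is that of MN9D, a mouse hybrid line of neuroblastoma cells fused with neurons of the embryonic midbrain, which makes dopamine. The labels give 4 arrays from MN9D cells overexpressing alpha- and beta- chains of mouse hemoglobin and 3 arrays from MN9D cells expressing an empty vector. Both groups are of the same line, and the labels name neither the promoter that drives the globins nor whether each group is 1 clone, a set of clones or a pool. The labels also do not say that replicates came from separate cultures, so p-values speak for the spread among these arrays alone, and that spread may be technical.

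Values are RMA expression on the log2 scale, 1 unit being a doubling of signal. Differences are the globin-labelled arrays minus the empty vector arrays, with limma's standard error after ± (n = 4 and n = 3 arrays) unless an SD is named. A probe set passed at a limma adjusted p under 0.05, adjusted over all 22626 probe sets. Levels are compared only within a probe set, because probe sets differ in how brightly they bind, and precision is limited by the number of arrays. RMA values carry no detection call, so for a dim probe set a level is only a place among the other probe sets.

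Correlations between arrays were 0.9985 to 0.9990 within a group and 0.9903 to 0.9917 across groups, and 39.5% of all probe sets passed. The 3 probe sets shared by Hba-a1 and Hba-a2 rose 35.8-fold to 142-fold, whereas the probe set shared by the adult beta-globin genes differed by 0.12 ± 0.06 (limma adjusted p = 0.149) and 1 of 2 probe sets of Hbb-b2 alone rose, by 0.34 ± 0.07. The probe sets of Hba-a2 alone (-0.03 ± 0.05) and of Hba-a1 alone (0.03 ± 0.06) did not pass. These arrays are referred to as globin-labelled. Th, the tyrosine hydroxylase that limits dopamine synthesis, was bright in both groups, as were the sympathetic transcription factor genes Phox2a and Hand2. Of 8 dopamine neuron markers 0 rose and 2 fell, Th by 0.70 ± 0.05 and Ddc, which makes dopamine from its precursor, by 0.22 ± 0.05. Of 4 sympathetic markers 2 rose, Dbh, the enzyme that makes noradrenaline, by 0.74 ± 0.07 and Phox2a by 0.16 ± 0.05, and 1 fell, Gata3, by 0.35 ± 0.05. Of 4 sensory neuron markers 1 rose, the intermediate filament gene Prph, by 0.82 ± 0.06, and 1 fell, the substance P precursor gene Tac1, by 0.59 ± 0.09. The midbrain transcription factor gene En1 was among the dimmest probe sets, and Slc6a3, the dopamine transporter, was dim. Of 6 astrocyte markers 0 passed in limma, and 1 of them, Gja1 at -0.13 ± 0.05, had a limma p of 0.0290 before adjustment (limma adjusted p = 0.0683). Of 6 fibroblast markers 1 passed, Thy1, also a neuronal surface protein, which rose by 1.94 ± 0.06, and the mean of that list was 7.01 to 7.07 in globin-labelled arrays and 6.69 to 6.73 in empty vector arrays. Of 5 macrophage markers 1 passed, Cd68, which fell by 1.25 ± 0.09 (list mean 5.87 to 6.02 in globin-labelled arrays and 6.15 to 6.20 in empty vector arrays). Of 4 markers of myelinating cells 1 passed, Mbp, which fell by 0.70 ± 0.06 (list mean 7.46 to 7.53 in globin-labelled arrays and 7.62 to 7.66 in empty vector arrays). Each marker was counted on its brightest probe set. Of the 7 other Mbp probe sets 4 fell and 1 rose. A dimmer probe set of Nr4a2, a dopamine neuron marker, fell by 0.28, and one of Pdgfra, a fibroblast marker, rose by 0.17. The part of all these markers in the receptor results was not tested.

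GDNF family ligands bind a GFR alpha co-receptor held to the membrane by a lipid anchor, and the pair then engages Ret, a receptor tyrosine kinase that carries the signal into the cell. Gfra1 prefers GDNF, Gfra2 neurturin, Gfra3 artemin and Gfra4 persephin. GDNF supports midbrain dopamine neurons, and Ret is also used by sympathetic and enteric neurons. Neurotrophins bind Trk kinases, Ntrk2 (TrkB) for BDNF and Ntrk3 (TrkC) for neurotrophin-3, and all of them bind Ngfr (p75), which has no kinase of its own. Ngfr can raise the selectivity of Trk receptors, and can also signal towards growth arrest or death when Trk receptors are not engaged.

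Ret and Ngfr rose strongly in the globin-labelled arrays, Ntrk3 rose less, and the GFR alpha co-receptors and Ntrk2 showed small differences, except for 1 probe set of Gfra1 that fell. Of the 17 receptor probe sets, 8 rose and 1 fell, where 18.3% of all probe sets rose, 21.2% fell and 39.5% passed in either direction. At 8 of the 17 the groups were fully apart, against 43.5% of all probe sets, so this count is near the background. A change of at least 2-fold that passed was seen for 4 of the 17, the single probe set of Ret and the 3 of Ngfr, where 1.33% of all probe sets had one. The 3 of Ngfr are repeated readings of the same gene and not separate members. Ret ranked 59th and the Ngfr probe sets 71st, 125th and 135th among the rises of the 22626 probe sets.

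**Figure D1:**
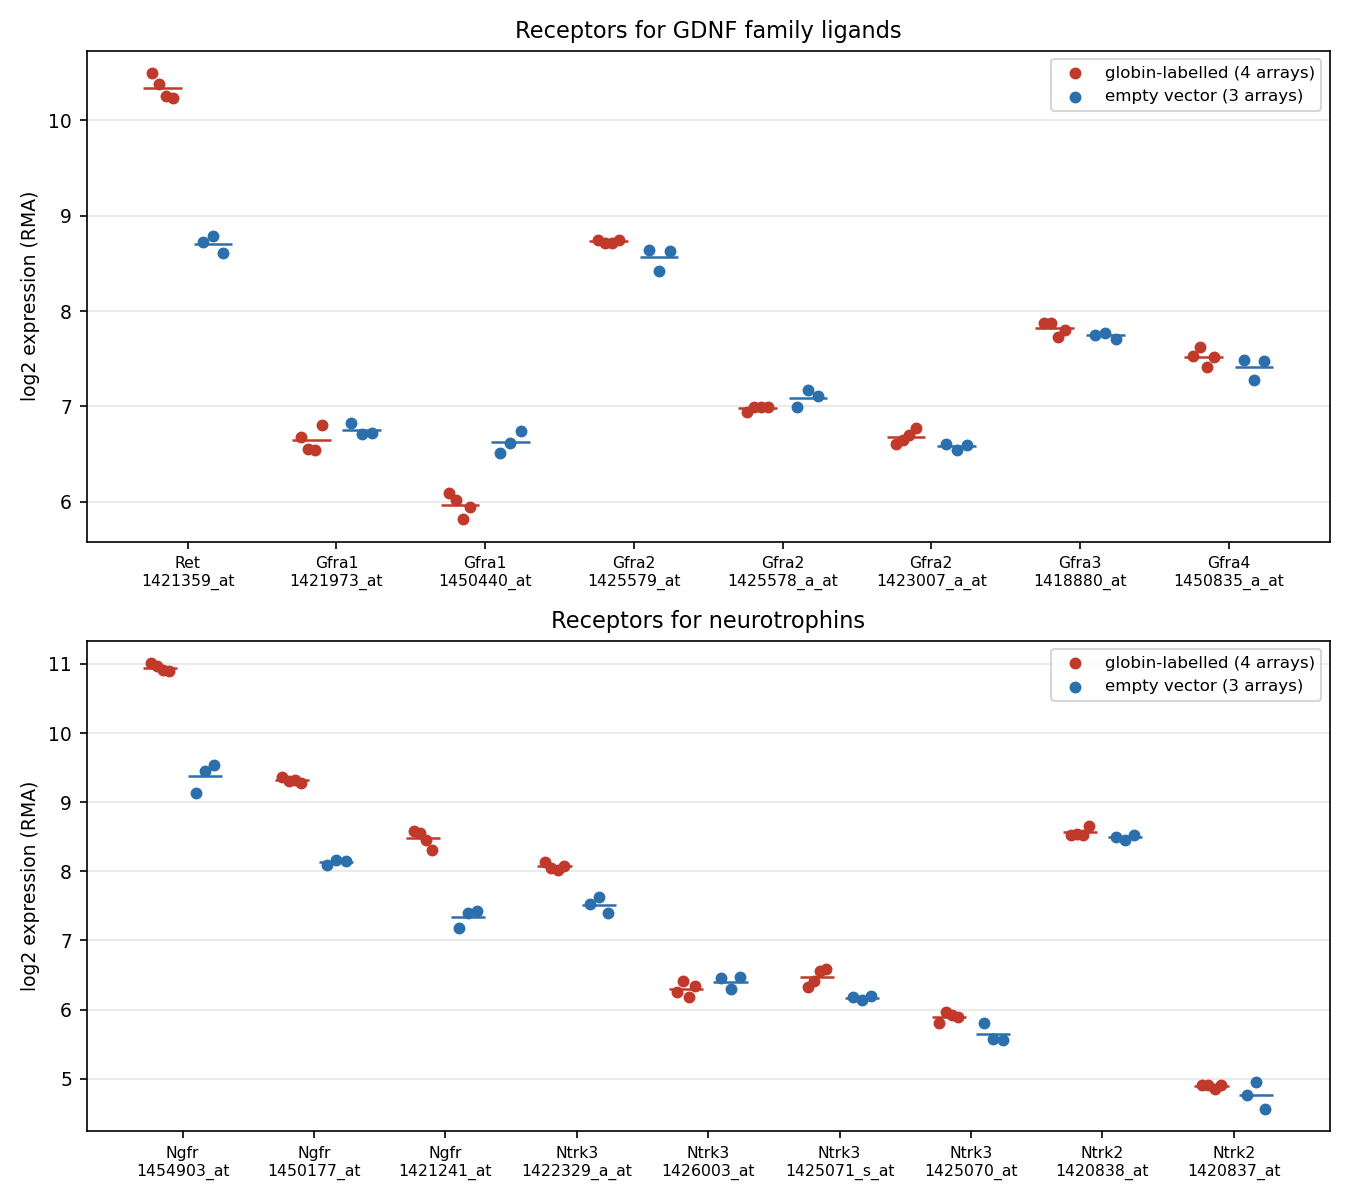
Expression on the log2 scale (vertical axis) of the 17 receptor probe sets (horizontal axis) in the 4 globin-labelled arrays and the 3 empty vector arrays, each point an array and each bar a group mean. Ret and the 3 Ngfr probe sets show globin-labelled arrays far above the empty vector arrays, whereas Gfra3, Gfra4 and Ntrk2 overlap.

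Ret, the signalling kinase for all GDNF family ligands, had the largest change of any receptor probe set. Its signal was 10.50, 10.38, 10.26 and 10.23 in the globin-labelled arrays, against 8.72, 8.78 and 8.61 in the empty vector arrays. All globin-labelled arrays lay above all empty vector arrays, with a gap of 1.45 between the nearest pair, more than 10 times the SD within either group (0.12 and 0.09). The difference of 1.64 ± 0.07 is a 3.11-fold rise (95% confidence interval on the log2 scale 1.48 to 1.79, limma adjusted p = 3.71e-07). In rank among all probe sets, Ret stood at the 69.7th percentile in globin-labelled arrays and at the 47.4th in empty vector arrays. Ret has a single probe set, so its rise could not be checked on another. As in any pooled RNA, more cells carrying a transcript and more of it in each cell cannot be told apart.

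The co-receptor genes did not share the rise of Ret. Gfra1, the co-receptor for GDNF itself, has a pair of probe sets that gave different answers. On the dimmer of them the signal was 6.09, 6.02, 5.82 and 5.94 in globin-labelled arrays, against 6.52, 6.62 and 6.74 in empty vector arrays. Here the globin-labelled arrays lay below all empty vector arrays, and the signal fell by 0.66 ± 0.07, a 1.58-fold difference (limma adjusted p = 1.19e-04). On the brighter one the values were 6.69, 6.56, 6.54 and 6.80 in globin-labelled arrays, against 6.83, 6.71 and 6.72 in empty vector arrays, and the groups overlapped. That difference of -0.10 ± 0.07 did not pass (95% confidence interval -0.26 to 0.05, limma adjusted p = 0.262). Both stood low, at the 15.2nd and 22.6th percentile in globin-labelled arrays and the 22.7th and 24.2nd in empty vector arrays.

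Gfra2, the co-receptor for neurturin, was probed 3 times with small differences. Its brightest probe set gave 8.75, 8.72, 8.72 and 8.74 in globin-labelled arrays, against 8.64, 8.42 and 8.63 in empty vector arrays. The globin-labelled arrays all lay higher, by 0.08 at the nearest, and the rise of 0.17 ± 0.06 passed narrowly (limma adjusted p = 0.0395), though it did not pass without any 1 of the 4 globin-labelled arrays or without empty vector array 2 (limma adjusted p 0.0698 to 0.105). The other probe sets of Gfra2 differed by -0.11 ± 0.05 and 0.10 ± 0.05 and did not pass (limma adjusted p = 0.102 and 0.147). The first of these passed as lower without empty vector array 1, at -0.16 (limma adjusted p = 0.0211).

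Gfra3 and Gfra4, the co-receptors for artemin and persephin, have 1 probe set each. Gfra3 had 7.73 to 7.88 in the globin-labelled arrays, against 7.71 to 7.77 in the empty vector arrays. Its difference of 0.07 ± 0.05 did not pass (95% confidence interval -0.03 to 0.18). Gfra4 had 7.41 to 7.63 in the globin-labelled arrays, against 7.28 to 7.49 in the empty vector arrays, a difference of 0.11 ± 0.07 that did not pass either (95% confidence interval -0.04 to 0.26). Both intervals lie far under the rise of Ret.

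Ngfr, the receptor shared by all neurotrophins, rose on each of its 3 probe sets. On the brightest, 1454903_at, the signal was 11.01, 10.97, 10.92 and 10.89 in globin-labelled arrays, against 9.14, 9.46 and 9.54 in empty vector arrays. On 1450177_at it was 9.36, 9.30, 9.32 and 9.28 in globin-labelled arrays, against 8.09, 8.16 and 8.14 in empty vector arrays. On 1421241_at it was 8.58, 8.56, 8.46 and 8.31 in globin-labelled arrays, against 7.19, 7.39 and 7.42 in empty vector arrays. The groups were apart on all 3, by 1.35, 1.12 and 0.89 at the nearest, and empty vector array 1 was the lowest array on each.

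The rises of Ngfr were 1.57 ± 0.09, 1.19 ± 0.04 and 1.15 ± 0.08, which are 2.97-fold, 2.27-fold and 2.21-fold (limma adjusted p = 1.96e-06, 7.90e-08 and 6.58e-06). The brightest probe set thus stood at the 78.4th percentile of all probe sets in globin-labelled arrays and at the 55.5th in empty vector arrays. Its rise was larger than those of the other pair by 0.39 and 0.42 within arrays (two-sided exact permutation p = 0.0286 for each, adjusted over 9 pairs 0.0429), so the direction was shared and the size was not.

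The promoter of Ngfr is shown because Ngfr was the only receptor gene measured more than once that rose on every probe set. RefSeq promoter entries were matched for 4 of the 8 receptor genes, Ngfr, Gfra1, Gfra4 and Ntrk2. The 250 bases before the annotated start of Ngfr (GRCm38.p6, chr11:95587699-95587948, minus strand), read 5′ to 3′ along the gene, are given with each GC box in capitals, the letters GGGCGG or, on the other strand, CCGCCC.
Ngfr promoter: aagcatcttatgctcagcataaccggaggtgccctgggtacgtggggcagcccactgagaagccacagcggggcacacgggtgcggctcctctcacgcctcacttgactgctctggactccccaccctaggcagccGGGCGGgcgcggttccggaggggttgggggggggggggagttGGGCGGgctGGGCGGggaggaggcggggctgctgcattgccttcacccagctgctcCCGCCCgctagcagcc
It held 4 GC boxes, 3 forward and 1 reverse, none overlapping another. Of 32851 promoter windows of this length, 32.7% held at least 1 and 4.09% at least 4. The letters TATAAA or TTTATA were not in this window and were in 12.4% of all windows. Its GC content was 70.4%, against a median of 52.4% over all windows. These matches describe the sequence and say nothing of binding in these cells.

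Ntrk3, the kinase for neurotrophin-3, rose on 3 of its 4 probe sets. On the brightest, 1422329_a_at, the signal was 8.14, 8.05, 8.01 and 8.08 in globin-labelled arrays, against 7.53, 7.63 and 7.39 in empty vector arrays. The groups did not overlap, and the rise of 0.55 ± 0.06 is 1.47-fold (limma adjusted p = 9.04e-05). On 1425071_s_at it was 6.32, 6.41, 6.55 and 6.58 in globin-labelled arrays, against 6.18, 6.14 and 6.20 in empty vector arrays. This rise of 0.30 ± 0.07 is 1.23-fold, and the groups were again apart (limma adjusted p = 0.00579).

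The remaining Ntrk3 probe sets were dim and less clear. On 1425070_at the globin-labelled arrays had 5.80 to 5.96, against 5.56 to 5.80 in empty vector arrays, a rise of 0.25 ± 0.07 (limma adjusted p = 0.0149). The groups touched there, and it did not pass without empty vector array 2 or 3 (limma adjusted p = 0.0628 and 0.0620). On 1426003_at the globin-labelled arrays had 6.18 to 6.41, against 6.30 to 6.47 in empty vector arrays, a difference of -0.11 ± 0.06 that did not pass (limma adjusted p = 0.214). Relative to the brightest probe set of Ntrk3, 1426003_at was lower in globin-labelled arrays by a further 0.66 (two-sided exact permutation p = 0.0286, adjusted over 9 pairs 0.0429). Which transcripts of Ntrk3, kinase-bearing or truncated, each probe set reads was not analysed here.

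Ntrk2, the kinase for BDNF, did not pass on either probe set. The brighter gave 8.53, 8.54, 8.53 and 8.66 in globin-labelled arrays, against 8.49, 8.45 and 8.53 in empty vector arrays, a difference of 0.07 ± 0.05 (95% confidence interval -0.03 to 0.18, limma adjusted p = 0.242). The other lay at the 6.11th percentile in globin-labelled arrays and the 5.22nd in empty vector arrays, with a difference of 0.14 ± 0.08 (limma adjusted p = 0.216). It passed only when empty vector array 2 was left out (0.23, limma adjusted p = 0.0222), and its signal is among the dimmest on the array.

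**Figure D2:**
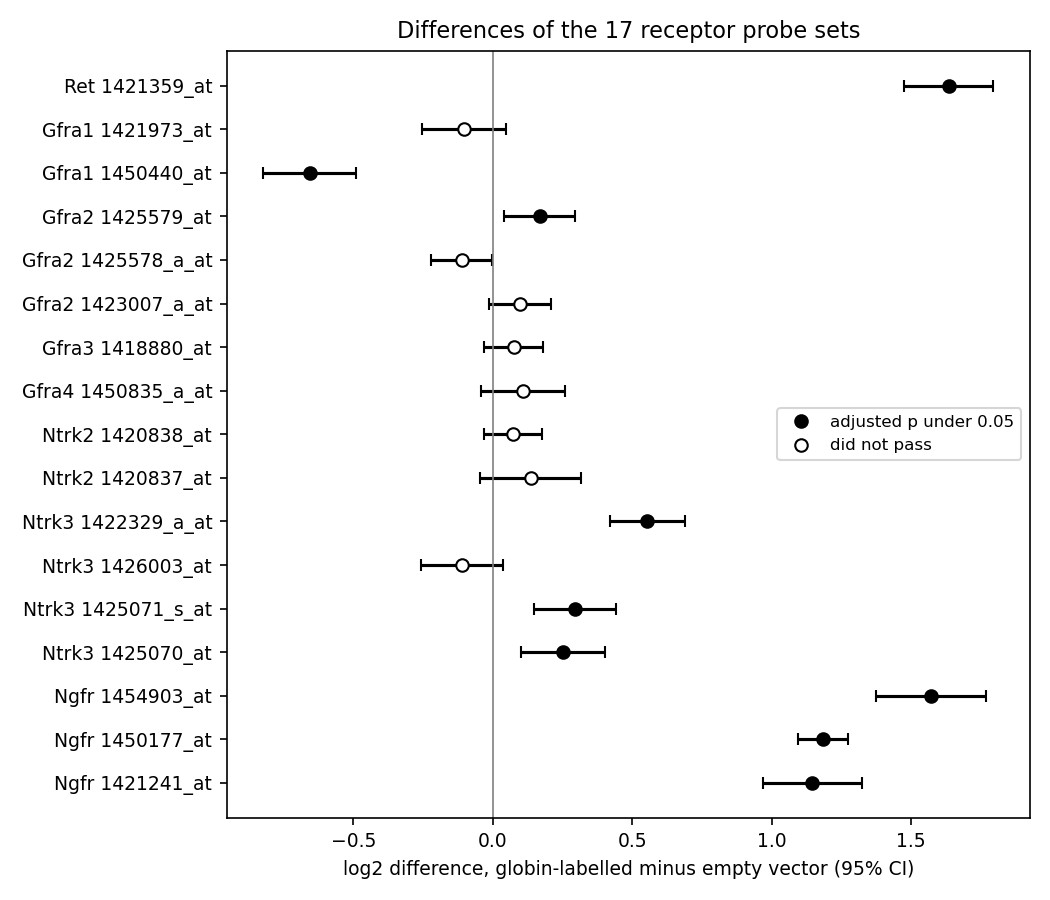
Log2 difference, globin-labelled minus empty vector (horizontal axis), of the 17 receptor probe sets with 95% confidence intervals, filled where the limma adjusted p is under 0.05. Ret at 1.64 and the Ngfr probe sets at 1.15 to 1.57 stand well right of the others, and 1 Gfra1 probe set at -0.66 stands left.

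Probe sets of one gene therefore gave unlike log2 differences more often than not. Of 9 pairs, each a probe set set against the brightest of its gene within each array, 6 had an adjusted exact permutation p of 0.0429, which comes from the smallest p that 35 splits of the arrays allow (0.0286). These were the Gfra1 pair, 1 pair of Gfra2, 2 of Ntrk3 and both of Ngfr. In all 6 the dimmer probe set had the lower difference, -0.28 to -0.66 relative to the brighter. The smallest of them, of Gfra2 on 1425578_a_at, was -0.17 without empty vector array 2. The adjusted value depends on all 6 reaching the smallest p. Pairs of Gfra2, Ntrk3 and Ngfr share the brightest probe set of their gene and are not independent. Whether the lower differences come from transcripts or from the brightness of a probe set was not tested.

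**Figure D3:**
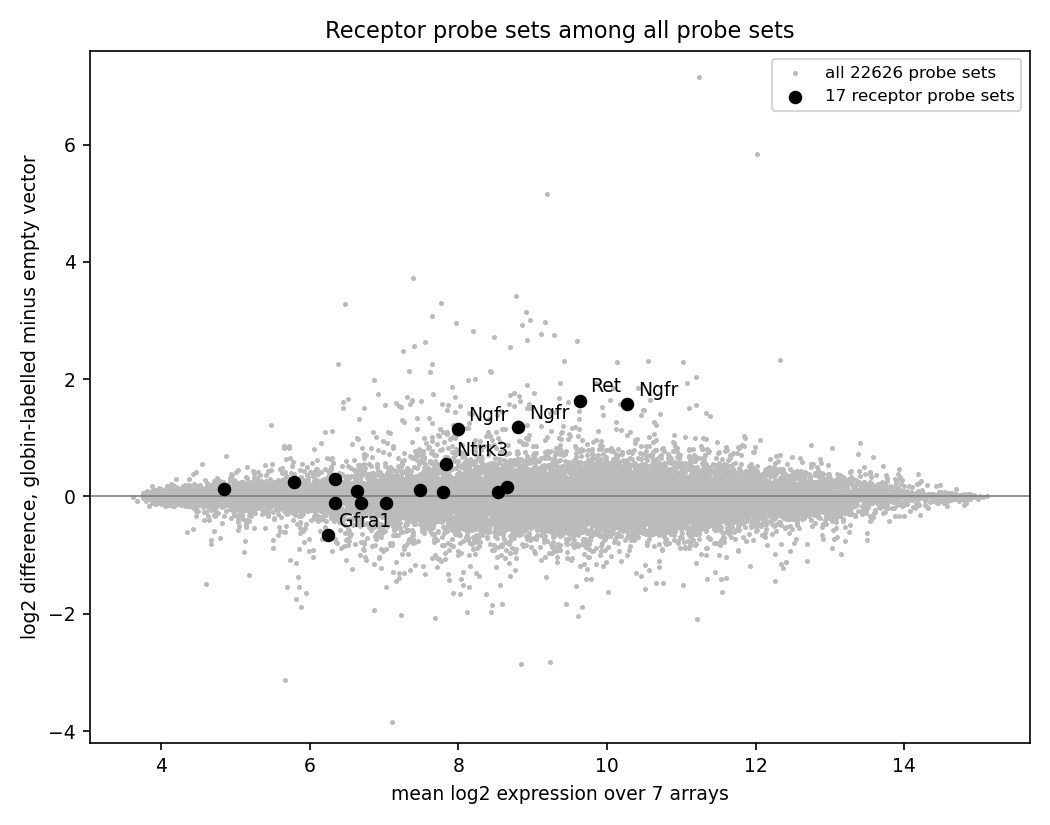
Log2 difference, globin-labelled minus empty vector (vertical axis), against mean log2 expression over 7 arrays (horizontal axis) for all 22626 probe sets in grey and the 17 receptor probe sets in black. Ret and Ngfr lie outside the bulk of probe sets of their brightness, and most of the other receptor probe sets lie within it.

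The profiles most like that of Ret over the 7 arrays, by Euclidean distance after subtraction of the empty vector mean, were those of Metrn, Bik, Ccnd2, Il6 and Limch1, at distances of 0.24 to 0.31. Metrn encodes meteorin, a secreted factor acting on glia and axons, and rose by 1.56 ± 0.04. For the brightest Ngfr probe set they were Hspa1b, Ccnd2, Prkg2, Metrn and Limch1, at 0.23 to 0.28. Metrn, Ccnd2 and Limch1 stood on both lists, Ccnd2 with a different probe set each time. This distance is small for any probe set with a difference of similar size and little spread among arrays. Ret and this Ngfr probe set rose by 1.64 and 1.57, so shared neighbours follow from the measure. Shared regulation was not tested.

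Among the ligands, differences were small. Nrtn, which encodes neurturin, rose by 0.23 ± 0.05 to 9.22 in globin-labelled arrays, against 8.99 in empty vector arrays (limma adjusted p = 0.00506). Artn, which encodes artemin, rose by 0.16 ± 0.06 (limma adjusted p = 0.0448), but did not pass without any 1 array, except without empty vector array 2. Pspn, which encodes persephin, and Gdnf differed by 0.14 ± 0.06 and -0.10 ± 0.08 and did not pass. So 2 of 4 measured GDNF family ligands rose, with a median of 0.15, where 20.6% of all genes rose, 20.1% fell and the median of all genes was 0.02. Of the neurotrophins, Bdnf was analysed here, and its brighter probe set differed by -0.05 ± 0.05 and the other by 0.07, neither of which passed.

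Genes of co-receptors and sorting receptors moved both ways. Of 12 measured, 5 rose and 3 fell, or 66.7% against 40.7% of all genes, with a median of 0.07. Lrig1, a membrane protein that restrains Ret and other receptor kinases, rose by 0.41 ± 0.04 to 8.43 in globin-labelled arrays, against 8.02 in empty vector arrays. Sdc3, a heparan sulphate proteoglycan that binds GDNF, fell by 0.45 ± 0.04. Ncam1, an adhesion molecule that can act as a receptor for GDNF, rose by 0.20 ± 0.05, although 0 of its 5 other probe sets passed. It did not pass under 3 of 14 alternative analyses. Over these its difference ranged from 0.04 to 0.23 (limma adjusted p up to 0.505). Lingo1, a partner of Ngfr in the Nogo receptor complex, and Sorcs3, a sorting receptor of the sortilin family, rose by 0.18 ± 0.04 and 0.19 ± 0.05, Sorcs3 not passing without empty vector array 1 (limma adjusted p = 0.0524). Itgb1, an integrin chain, fell by 0.19 ± 0.06 but did not pass under 5 of 14 alternative analyses. Among them were those without globin-labelled array 3 or 4 or empty vector array 3 (limma adjusted p 0.0526 to 0.0802). Over all alternatives the difference of Itgb1 ranged from -0.23 to -0.08 (limma adjusted p up to 0.123). Sorl1, the brightest of those that did not pass, differed by 0.00 ± 0.04.

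Among 38 adaptors and effectors, 8 rose and 10 fell, or 47.4% against 40.7% of all genes, with a median of -0.02. Grb10, an adaptor that binds Ret, rose with 9.46, 9.52, 9.71 and 9.60 in globin-labelled arrays, against 8.14, 8.09 and 7.96 in empty vector arrays. That rise of 1.51 ± 0.07 is 2.85-fold (limma adjusted p = 4.80e-07). A second Grb10 probe set rose by 0.75, and the third, which was dim, differed by -0.02. Grb2, the adaptor that links receptor kinases to Ras, had 10.73, 10.88, 10.76 and 10.68 in globin-labelled arrays, against 11.52, 11.49 and 11.58 in empty vector arrays, and fell by 0.77 ± 0.05 (limma adjusted p = 6.14e-06). The other Grb2 probe set also fell, by 0.41. Shc1, an adaptor upstream of Grb2, and the kinase gene Src fell by 0.23 ± 0.04 and by 0.34 ± 0.06. Grb7 and Pik3r2, a regulatory subunit of PI3 kinase, rose by 0.25 ± 0.04 and 0.34 ± 0.05, while Crk, the brightest of those that did not pass, differed by 0.02 ± 0.04.

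Of 16 measured partners and processing enzymes of Ngfr, 2 rose and 4 fell, or 37.5% against 40.7% of all genes, with a median of -0.01. Traf6 and Irak1, which carry Ngfr signals towards NF-kappa B, fell by 0.24 ± 0.04 and by 0.26 ± 0.05. Ncstn, a subunit of the gamma-secretase that cuts Ngfr, and Adam10, a membrane protease, fell by 0.21 ± 0.04 and by 0.18 ± 0.05. Traf4 and the presenilin gene Psen2 rose by 0.19 ± 0.04 and 0.17 ± 0.05, Psen2 not passing without empty vector array 1 (limma adjusted p = 0.0514) or as a mean over its probe sets (0.08, limma adjusted p = 0.0946). Bex1, an adaptor related to a partner of Ngfr, was bright at 13.91 in globin-labelled arrays and 13.81 in empty vector arrays and did not pass (0.10 ± 0.04, limma adjusted p = 0.0759).

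Genes that restrain receptor kinases were called often and in both directions. Of 15 measured, 6 rose and 6 fell, 80% in all against 40.7% of all genes, with a median of 0.06. The list was bright, with means of 10.60 to 10.64 in globin-labelled arrays, and the share of all genes was not matched for brightness. The Sprouty genes, which block the path from receptor kinases to ERK, all rose where measured. Spry1 had 9.82, 9.92, 9.82 and 9.84 in globin-labelled arrays, against 8.79, 8.76 and 8.74 in empty vector arrays, a rise of 1.08 ± 0.04, or 2.12-fold (limma adjusted p = 1.79e-07). Spry2 rose by 0.77 ± 0.09, and Spry4 by 0.40. Dusp6, an ERK phosphatase, rose by 0.73 ± 0.04 to 13.69 in globin-labelled arrays, against 12.96 in empty vector arrays (limma adjusted p = 1.46e-06).

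Others of these regulators went separate ways. Sh3kbp1, which draws activated receptors into endocytosis, rose by 0.80 ± 0.05 with both other probe sets rising, and Ptprj, a receptor phosphatase, rose by 0.61 ± 0.07 with 0 of 3 other probe sets passing. Ptprf, the phosphatase LAR, fell by 0.74 ± 0.05 and on both other probe sets. Cbl, a ubiquitin ligase for receptor kinases, and Cd2ap, which binds Cbl, fell by 0.20 and by 0.19, and Spred1 and Spred2 fell by 0.28 and by 0.23. The ubiquitin ligase gene Nedd4 differed by -0.06 ± 0.06.

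Genes that respond to ERK signalling were also divided. Of 13 measured, 6 rose and 2 fell, or 61.5% against 40.7% of all genes, with a median of 0.08. Egr1, an immediate early transcription factor gene, had 12.06, 11.85, 11.92 and 11.97 in globin-labelled arrays, against 10.56, 10.53 and 10.47 in empty vector arrays. Its rise of 1.43 ± 0.05 is 2.69-fold (limma adjusted p = 1.67e-07). The immediate early genes Ier2 and Ier3 rose by 0.70 ± 0.06 and 0.50 ± 0.05, and Arc by 0.50 ± 0.09. The AP-1 genes Jun and Fosl1 fell by 0.55 ± 0.06 and by 0.59 ± 0.06, each on both probe sets. Other AP-1 genes of the list did not fall with them. Fos rose by 0.37 ± 0.11 (limma adjusted p = 0.0244), and Junb at 0.03 ± 0.06 and Fosb at -0.04 ± 0.05 did not pass. Etv4, a transcription factor gene that lies downstream of Ret in the developing kidney, differed by -0.11 ± 0.05 and did not pass. Etv5, of the same list, rose by 0.26 ± 0.05 (limma adjusted p = 0.00242), although its other probe set, at 0.17, did not pass.

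Of 10 measured transcription factor genes linked to Ret or to neurons that carry it, 1 rose and 1 fell, or 20% against 40.7% of all genes. Gata3, a factor of sympathetic neurons, fell by 0.35 ± 0.05, and Phox2a, which is needed for noradrenergic neurons, rose by 0.16 ± 0.05 (limma adjusted p = 0.0420, which did not pass without any 1 of the 4 globin-labelled arrays or without empty vector array 1 or 2). Pax3 differed by 0.09 ± 0.05 and did not pass. Over all the lists, 109 of 141 genes were measured, 30 rose and 26 fell, so 51.4% passed, against 40.7% of all genes. These shares were not matched for brightness. The co-receptor, adaptor, Ngfr partner, negative regulator and ERK-responsive lists had means above the array medians. Without the dimmest 25% of probe sets, 4041 rose and 4801 fell, against 4131 and 4800 of all. Nearly as many passed out of fewer tested, so the share passing was higher than over all probe sets. The filter also changes the p adjustment, so these counts do not isolate what dim probe sets add. The higher share of the lists is therefore not a measured excess.

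**Figure D4:**
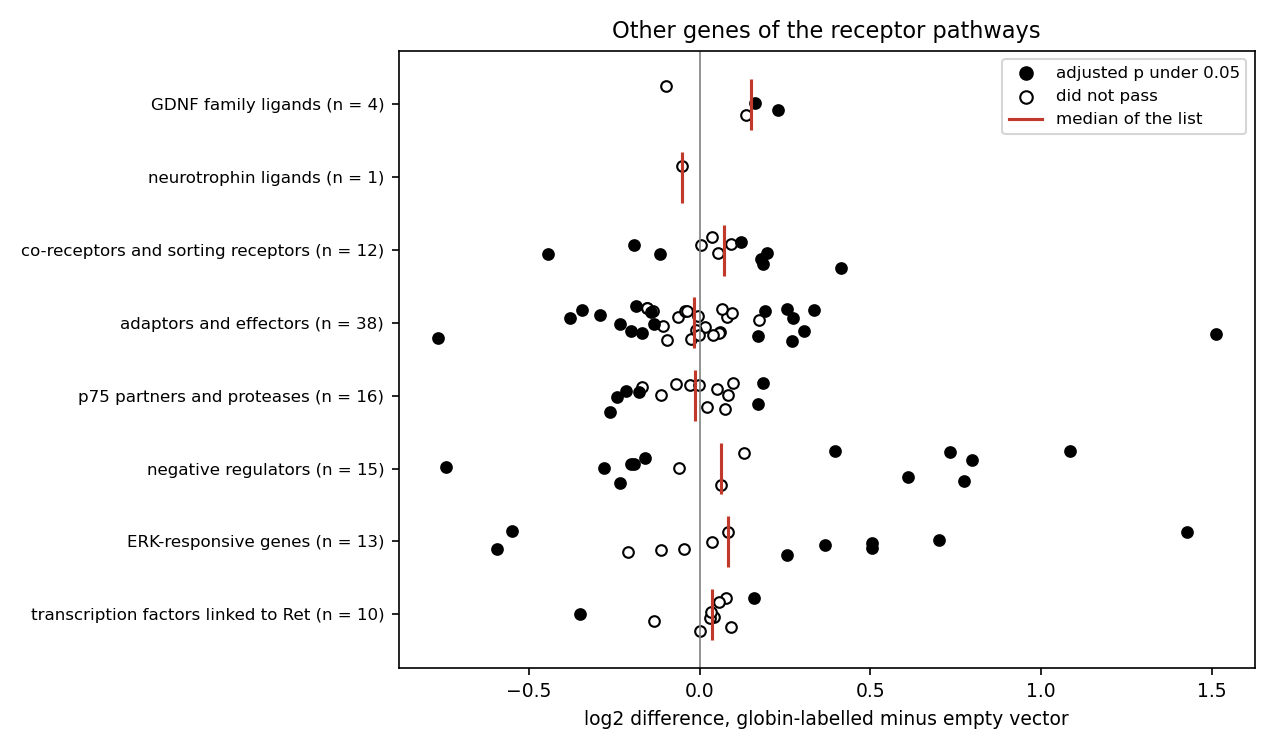
Log2 difference, globin-labelled minus empty vector (horizontal axis), of the other measured genes of the receptor pathways, grouped by role (vertical axis), filled where the limma adjusted p is under 0.05, with the median of each list as a red bar. Medians lie between -0.05 and 0.15, and the widest spreads are among adaptors, negative regulators and ERK-responsive genes.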

How the data were processed

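Total RNA of 7 samples was labelled in one amplification cycle and hybridised to mouse 430A 2.0 arrays, per the labels' protocols. The deposited log2 values come from RMA (per the submitters' processing notes), with software and version not stated in the sources used here. RMA makes the arrays' distributions alike, which hides a shift common to most transcripts. The design text counts 8 arrays; 1 control array that failed quality assessment was not used here. From the 22690 probe sets 64 array controls were removed. Of the rest, 20380 had 1 gene symbol in the platform's annotation, 691 had several and 1555 were unnamed here. Array medians lay between 8.90 and 8.94.

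The groups were compared with limma 3.58.1 in R 4.3.3 (lmFit and eBayes with a group term, two-sided, Benjamini-Hochberg adjustment). Pathway and marker genes were represented by their brightest probe set. The text names every receptor probe set, all genes of lists with up to 5 measured members and otherwise up to 6 passing genes with the smallest p and the brightest that did not pass, and the 5 nearest profiles of the 2 receptor probe sets with the largest differences. Spry4, Spred1, Spred2, Cbl, Cd2ap, Etv5, Fos, Fosb and Junb, where named, were chosen after their values were seen. The receptor genes and lists were chosen with earlier results of these data known. Probe sets of one gene were compared by an exact permutation test over 35 splits. The fit and the permutation test were tested on simulated data. Alternatives were other array scalings, a filter on dim probe sets, trend and robust moderation, a replicate block, each array left out, the mean over a gene's probe sets and, added after the data were seen, leaving out globin-labelled array 4 and empty vector array 1 together.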

Additional observations from a re-analysis of the deposited data

Results flagged for a closer look

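Over 60 probe sets tested in the 4 globin-labelled arrays, 8 had 1 array far from the other 3, where chance gives about 1 in 20. Ntrk2 on its dim probe set read 4.85 in array 3 and 4.92 in each of the others, and Gfra2 on 1425578_a_at read 6.94 in array 1 and 1 higher, equal value in each of the others. In both, the other 3 arrays are exactly tied, and the rate of 1 in 20 does not apply to tied values. Ntrk2 on its brighter probe set read 8.66 in array 4 and 8.53 to 8.54 in the others. Among pathway genes, Shc1 read 11.65 in array 2 (others 11.56 to 11.57), Bex1 13.87 in array 4 (others 13.92), Ier2 11.19 in array 1 (others 10.98 to 10.99), Ier3 11.26 in array 3 (others 11.35 to 11.37) and Etv4 10.65 in array 3 (others 10.77 to 10.79).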

How the results depend on the processing

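Ret, the 3 Ngfr probe sets and the 2 brightest rising Ntrk3 probe sets kept their direction and passed under every alternative that kept them. So did 1450440_at of Gfra1, which fell, whereas the other Gfra1 probe set passed under none that kept it. Of these, the filter on dim probe sets removed both Gfra1 probe sets and 1425071_s_at of Ntrk3. Ret ranged from 1.58 to 1.68 and the brightest Ngfr probe set from 1.45 to 1.65. Of the receptor probe sets, 6 to 10 passed (9 as reported), 9 of the reported 9 under both other scalings. Those that fell numbered 1 as reported, 0 with the filter, 1 to 2 with each array left out, and 2 without globin-labelled array 4 and empty vector array 1 together. With the filter, 3 in place of 6 probe set pairs passed, fewer being tested. Pathway genes passing ranged from 41 to 59 (56 as reported). Sorl1, near 0 as reported, turned to -0.011 under the block and without the pair of arrays and lay between -0.011 and 0.015 with each array left out, and Bdnf turned to 0.011 as a mean over its probe sets. The numbers shared by the labels do not pair the arrays: deviations of same-numbered arrays correlated at -0.36 to -0.14, and 0 of 6 arrays correlated best with their own number. With the replicate block, which also left out globin-labelled array 4, 7 receptor probe sets and 6337 of all passed (8931 without it), and Gfra2, 1425070_at of Ntrk3, Traf4 and Psen2 no longer passed (adjusted p = 0.0528 for Traf4 and 0.0522 for Psen2). The pair test was not run with arrays left out or with the block, since fewer splits cannot pass.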

Other observations

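Exact ties between arrays were common in the deposited values. At 36.3% of all probe sets at least 2 of the 7 arrays held the same value, and 4 of the 17 receptor probe sets did. Gfra2 on 1425578_a_at held one value in 4 arrays, 3 globin-labelled and 1 empty vector, and Ntrk2 on 1420837_at in 3 globin-labelled arrays. The SDs of such groups, 0.03 for both in the globin-labelled arrays, are small for that reason, and ties were absent from Ret, Gfra1 and Ngfr.

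The genes next to the receptors in RefSeq order, 5 measured on either side, were looked at after the data were seen and were not tested as groups. Over all genes 20.6% rose and 20.1% fell. Around Ret 2 of 10 neighbours rose and 1 fell, with a median of 0.02, and around Ngfr 2 rose and 1 fell, with a median of 0.07. One neighbour of Ngfr, B4galnt2, rose by 1.02. Around Gfra1 0 of 10 rose and 6 fell, with a median of -0.19, and around Gfra4 1 rose and 7 fell, with a median of -0.24. Around Gfra2 4 rose and 0 fell, around Ntrk2 2 rose and 2 fell, and around Ntrk3 1 rose and 1 fell. Around Gfra3 4 rose and 4 fell, and the highest was Egr1, which rose by 1.43.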
